A study of Mus musculus with 4 samples.

Results

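Peaks at the ends of protein-coding genes were examined in 2 deposited peak lists from chromatin immunoprecipitation with sequencing (ChIP-seq) of TEAD1 in cardiac fibroblasts of newborn mice. A peak was taken as a gene-end peak when its summit, the base with the highest ChIP signal, lay within 1000 bp of either end of a protein-coding gene span. By this rule 1129 of 21285 peaks belonged in list 1 and 1072 of 21218 in list 2, which is 5.30% (Wilson 95% interval 5.01 to 5.61) and 5.05% (4.77 to 5.36). Cells of one group carried a negative control for overexpression (OE-NC) and cells of the other overexpressed TEAD1 (OE-TEAD1). Each group gave 1 ChIP library and 1 input library, the input being sonicated chromatin kept aside before the antibody step. The labels do not say which list belongs to which group, so they appear here side by side under the numbers 1 and 2, and the effect of overexpressing TEAD1 cannot be read from them. The vector, the number of animals per culture and whether cells were checked for other cell types were not given in the sources used here, nor was the antibody.

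TEAD1 is a DNA-binding factor that recruits YAP and TAZ, the coactivators held in check by the Hippo kinase cascade. TEAD factors recognise the letters CATTCC, and in many cell types they are known to act largely from enhancers away from promoters, often beside sites of the AP-1 factors. In fibroblasts YAP, TAZ and TEAD are known for driving matricellular, cytoskeletal and myofibroblast genes, of which Ccn1, Ccn2 and Ankrd1 are the usual reporters.

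The promoter sequences under the strongest shared gene-end summits show what such a site looks like. They are RefSeq sequence of build GRCm38.p6, read 5′ to 3′ along the gene, up to 45 bases on each side of the list 1 summit and ending at the base before the annotated start. The 8 stretches were taken in order of the lower −log10 q of the pair, among shared gene-end peaks with a summit inside the RefSeq promoter window in both lists and before the start in list 1. The start of a promoter entry can differ from the end of the gene span, and strong peaks near a 5′ end, such as that of Ercc4, could therefore lie outside the window. Capitals mark CATTCC or its reverse complement GGAATG.
Calhm5, chr10:34096553-34096643, minus strand: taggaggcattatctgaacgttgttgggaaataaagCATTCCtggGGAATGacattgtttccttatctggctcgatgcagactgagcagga
Ankrd1, chr19:36120047-36120094, minus strand: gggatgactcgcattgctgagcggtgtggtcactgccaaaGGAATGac
Cald1, chr6:34598317-34598407, plus strand: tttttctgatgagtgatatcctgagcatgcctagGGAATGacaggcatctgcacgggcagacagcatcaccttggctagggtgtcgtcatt
Ogn, chr13:49607885-49607975, plus strand: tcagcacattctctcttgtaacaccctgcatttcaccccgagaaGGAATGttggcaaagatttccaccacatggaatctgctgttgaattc
Cp, chr3:19956950-19957040, plus strand: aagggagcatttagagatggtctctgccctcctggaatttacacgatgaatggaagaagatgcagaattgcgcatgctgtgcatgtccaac
Ska2, chr11:87109207-87109260, plus strand: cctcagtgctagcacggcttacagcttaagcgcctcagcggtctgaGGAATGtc
Ajuba, chr14:54577770-54577860, minus strand: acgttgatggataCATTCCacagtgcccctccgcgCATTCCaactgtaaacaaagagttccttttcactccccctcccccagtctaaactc
Gpr141, chr13:19824307-19824397, minus strand: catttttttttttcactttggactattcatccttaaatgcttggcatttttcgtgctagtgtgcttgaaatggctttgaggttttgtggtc
In 6 of the 8 stretches the core letters are present. In Calhm5, Cald1, Ogn, Ska2 and Ajuba the nearest core lay 2.5, 8.5, 1.5, 3.5 and 7.5 bp from the list 1 summit, measured to its centre. In Ankrd1 the nearest core inside the window lay 40.5 bp away, and the rest of that window held another copy. That window ended just upstream of the summit, so sequence on that side was not searched. In Cp the window held 1 copy outside the printed stretch, together with 1 copy of the AP-1 letters TGANTCA. Gpr141 had neither set of letters in its window of 300 bases.

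These promoters belonged to genes of several kinds. Calhm5, of the calcium homeostasis modulator family, had 190 ChIP fragments at its list 1 summit and 167 at its list 2 summit, for a fold over input of 50.9 (exact Poisson 95% interval 44.0 to 58.7) and 48.9 (41.8 to 56.9). Ankrd1, a stress-responsive ankyrin repeat gene of muscle, had 101 fragments in both lists. With a local background of 1.91 fragments in list 1 and 4.06 in list 2, its fold was 35.0 and 20.2. The ChIP counts at Ankrd1 were equal and the backgrounds were not. Cald1, encoding caldesmon, had 78 and 99 fragments and folds of 29.0 and 26.0. Ogn, encoding the small leucine-rich proteoglycan osteoglycin, had 69 and 74 fragments and folds of 22.8 and 23.9. Both genes had overlapping intervals between the lists. Ajuba, a LIM protein that binds the Hippo kinases LATS, had 52 and 69 fragments and folds of 17.2 (13.0 to 22.5) and 23.1 (18.05 to 29.2). Cp, encoding ceruloplasmin, had folds of 19.2 and 27.7, and Ska2, of the spindle and kinetochore, had folds of 19.1 and 27.1. Fold is the authors' value, the ChIP pileup plus 1 divided by the background used at the summit plus 1. Many peaks had the same low background, 1.72 fragments in list 1 and 1.87 in list 2, which is the lower quartile of each list. At such peaks the background is a shared floor and not a reading of input at that site. Intervals cover counting error of the ChIP library alone. With 1 library behind each list, no difference between the lists could be set against a spread between cultures.

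Counting the core letters over all promoters set these examples in context. RefSeq promoter windows, 250 bases before a start to 50 after it, numbered 21019 for protein-coding genes, and 13.5% of them held CATTCC on either strand. These windows reach only a part of the gene-end peaks, 136 of 1129 in list 1 (12.05%) and 118 of 1072 in list 2 (11.01%), and the other gene-end summits were not searched for motifs. Of 141 windows with a gene-end summit in list 1, 66 held it, or 46.8% (Wilson interval 38.8 to 55.02). In list 2, 59 of 122 did, or 48.4% (39.7 to 57.1). Windows without any summit held it in 13.2% of cases for either list. The longer forms ACATTCC and GCATTCC, which contain the core, were in 39.01% and 40.2% of the windows with a gene-end summit, against 6.46% of all windows. The interval of every such share lay above the share of all windows.

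**Figure D1:**
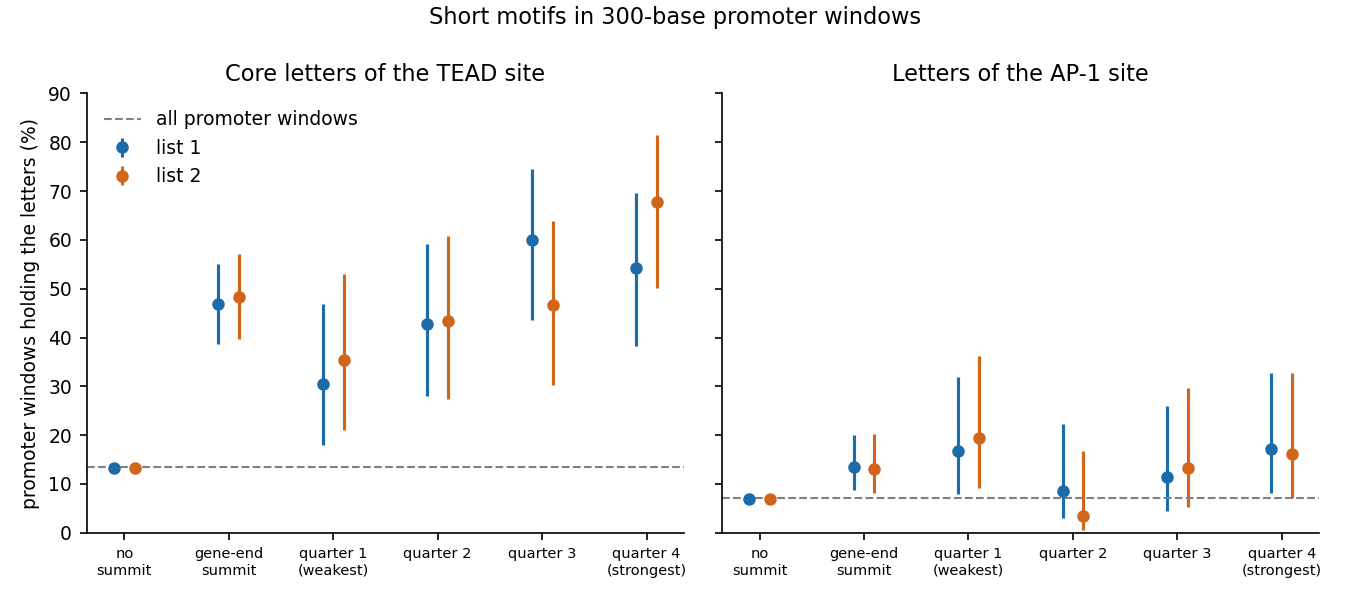
Share of promoter windows (vertical axis, %) that hold the core letters of the TEAD site (left) or the letters of the AP-1 site (right), by class of window; points are shares, bars Wilson 95% intervals, blue list 1 and orange list 2, and the dashed line is the share of all 21019 windows. The TEAD letters stand in 30.6% and 35.5% of windows in the weakest quartile group of gene-end summits and in 54.3% and 67.7% in the strongest, and the AP-1 letters in 3.33% to 19.4% over these groups.

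The share holding the core was also read by the strength of the peak. Over 4 quartile groups from weak to strong it was 30.6%, 42.9%, 60% and 54.3% in list 1, where the third group was the highest. In list 2 it was 35.5%, 43.3%, 46.7% and 67.7%. Each group held 30 to 36 windows, and the intervals of the weakest and the strongest group overlapped in both lists, as the plot of motif shares shows. Windows with the core had a median fold of 6.71 in list 1 and 8.59 in list 2, and those without it 5.51 and 6.51. Of windows with the core 71.2% had a peak shared with the other list in list 1 and 76.3% in list 2, against 56.0% and 65.1% of windows without. The nearest core lay at a median of 16 bp from the summit in list 1 and 22.5 bp in list 2. It was within 50 bp in 50 of 66 windows and 43 of 59.

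AP-1 letters were less frequent. TGANTCA, searched on both strands, can share letters with a neighbouring TEAD core and stood in 7.04% of all windows. It was found in 19 of 141 windows with a gene-end summit in list 1, or 13.5% (8.80 to 20.1), and in 16 of 122 in list 2, or 13.1% (8.24 to 20.2).

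Base composition also differed between these promoters. The median GC content was 50% in windows with a gene-end summit in list 1 and 49.3% in list 2, against 56.7% of all windows. The share with the core was therefore also read at like GC content. Between 50% and 55% GC, 29 of 51 windows held the core in list 1 (56.9%) and 18 of 33 in list 2 (54.5%), against 17.2% of all windows of that composition. Between 45% and 50% GC, 16 of 42 (38.1%) and 16 of 39 (41.0%) held it, against 17.5%. The share with the core was thus above that of windows of like composition in both ranges, by less in the lower one. The AP-1 letters stood in 7 of 42 (16.7%) and 8 of 39 (20.5%) windows between 45% and 50% GC, against 10.4%. Between 50% and 55% they stood in 7 of 51 (13.7%) and 5 of 33 (15.2%), against 8.49%. Between 40% and 45% they stood in 1 of 20 and 0 of 24, against 11.1%. Among these ranges their interval lay above the share of all windows only in list 2 between 45% and 50% (10.8 to 35.5). A match of letters is a description of the window and not a mapped binding site.

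Strand set the ends of genes apart. RefSeq promoter entries gave the strand of 17273 of 21627 protein-coding genes on chromosomes 1 to 19 and X. Where the nearest gene end had a strand, it was a 5′ end, where transcription starts, in 633 of 885 list 1 peaks (71.5%, 68.5 to 74.4) and in 582 of 849 list 2 peaks (68.6%, 65.4 to 71.6). It was a 3′ end in 252 and 267 peaks.

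**Figure D2:**
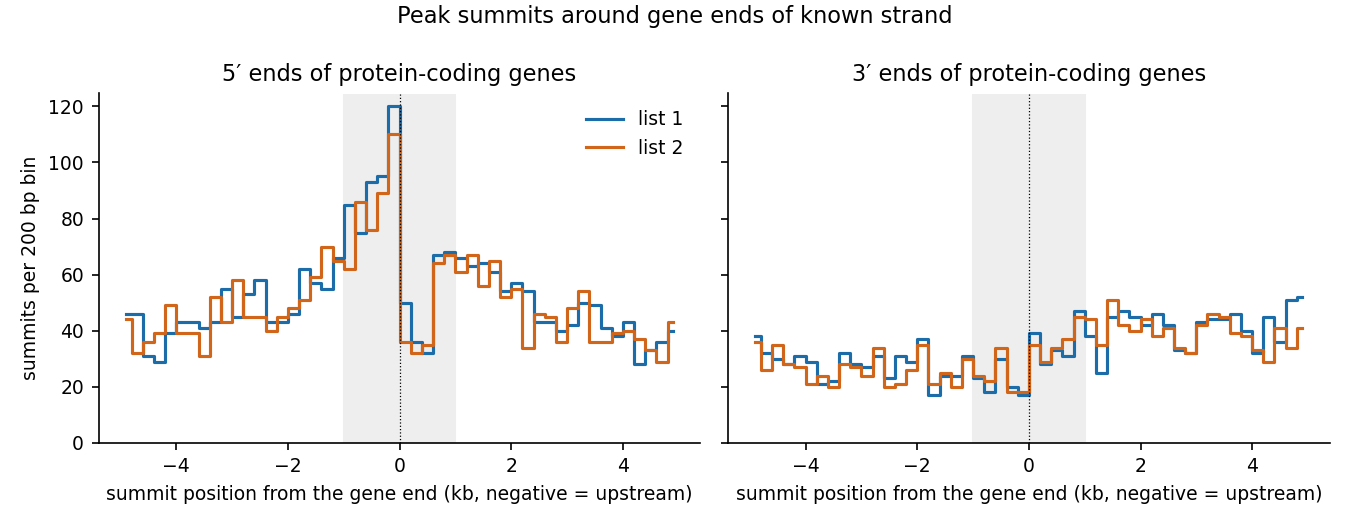
Number of peak summits in bins of 200 bp (vertical axis) by position from the 5′ end (left) or 3′ end (right) of genes of known strand (horizontal axis, kb, negative is upstream); blue is list 1, orange list 2, and grey marks the 1000 bp used to choose gene-end peaks. A summit within reach of several ends is counted at each. The bin just upstream of the 5′ end holds 120 and 110 summits and the bin just downstream 50 and 36, and no such rise is seen at 3′ ends.

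Summits rose toward the 5′ end from upstream and dropped within the gene. A summit was counted once for each gene end within reach, so some entered the profile more than once. In list 1, 62 summits and in list 2, 53 lay within 1000 bp of a pair of 5′ ends and were counted at both. How much this added to the rise was not measured. The 200 bp before the 5′ end held 120 summits in list 1 and 110 in list 2, the highest bins of the profile. The 200 bp after it held 50 and 36. The bins from 200 to 600 bp into the gene held 36 and 32 in list 1 and 32 and 35 in list 2, and those from 600 to 1000 bp 67 and 68 in list 1 and 64 and 67 in list 2. For comparison, 3 to 5 kb away the mean was 40.8 and 39.95 summits per bin, and single bins ranged from 28 to 55 in list 1 and from 29 to 54 in list 2. The strip just inside the start therefore held about as few summits as sequence several kb off, between 2 flanks that held more. Over the whole 1000 bp on both sides the mean per bin was 1.77 times the outer mean in list 1 and 1.64 times in list 2.

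At 3′ ends there was no such rise. The mean per bin within 1000 bp was 0.790 of the outer mean in list 1 and 0.897 in list 2. The last 200 bp of the gene held 17 summits in list 1 and 18 in list 2, and the 200 bp beyond the gene 39 and 35.

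The median folds of peaks at 5′ and 3′ ends were close, and strong peaks made up a larger share at 3′ ends in list 1. The median fold was 5.86 at 5′ ends and 5.88 at 3′ ends in list 1, and 6.36 and 6.51 in list 2. Folds of 10 or more were seen at 95 of 633 list 1 peaks at 5′ ends (15.01%, 12.4 to 18) and at 59 of 252 at 3′ ends (23.4%, 18.6 to 29.02), and these intervals did not overlap. In list 2 the shares were 20.1% (17.0 to 23.6) and 22.1% (17.5 to 27.5), with overlapping intervals. Sharing differed between the lists in direction, with 62.9% at 5′ ends against 73.4% at 3′ ends in list 1 and 69.6% against 67.0% in list 2.

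Several gene ends could lie within reach of one summit. In list 1, 122 gene-end summits were near 2 genes and 4 were near 3, and in list 2 the numbers were 105 and 3. Of those near 2 genes, 62 in list 1 and 53 in list 2 were within 1000 bp of a pair of 5′ ends, either between them or inside one of the genes. A pair of 3′ ends accounted for 13 and 8, and a 5′ with a 3′ end for 20 and 18. The rest involved a gene whose strand was not given.

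Gene-end peaks were somewhat weaker and narrower than other peaks. Their median fold was 5.88 in list 1 (quartiles 4.54 and 8.27) and 6.36 in list 2 (4.75 and 9.20), against 6.24 and 6.87 for the other peaks. They ranged from 2.59 to 60.6-fold in list 1 and from 2.74 to 108.9-fold in list 2. Of gene-end peaks 17.0% had folds of 10 or more in list 1 (14.9 to 19.3) and 20.6% did in list 2 (18.3 to 23.1), where the background over all peaks was 22.9% and 28.1%. The median width was 416 bp in list 1 and 401.5 bp in list 2, against 476 and 448 bp elsewhere. The median number of fragments at the summit was 17 and 20, against 19 and 22. Local background was near that of other peaks, with medians of 1.85 and 2.03 fragments against 2.07 and 2.03. These differences were not tested, since peaks of one library are not replicates.

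**Figure D3:**
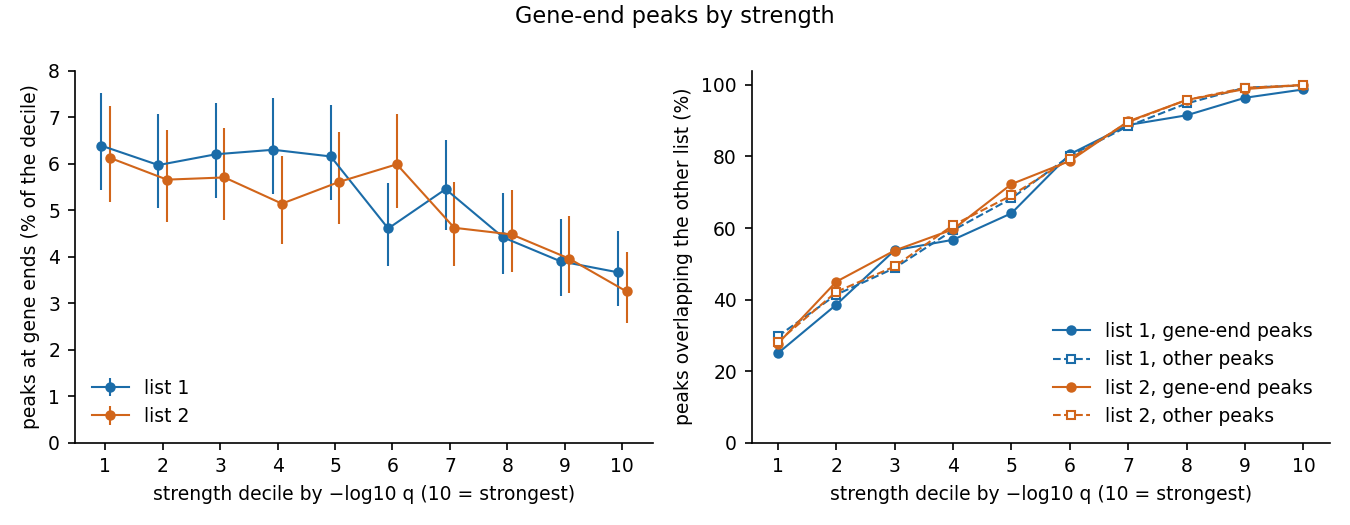
Left, gene-end peaks as a percentage of all peaks in each decile of a list ordered by −log10 q (bars are Wilson 95% intervals); right, percentage of peaks overlapping the other list, filled circles for gene-end peaks and open squares for other peaks. The gene-end share goes from 6.39% and 6.13% in the weakest decile to 3.66% and 3.25% in the strongest, and on the right gene-end and other peaks of like strength lie close together.

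The share of peaks at gene ends was lower among strong peaks. In the weakest decile of list 1 by −log10 q it was 6.39% and in the strongest 3.66%. In list 2 it was 6.13% and 3.25%. Below the median −log10 q of list 1, 6.20% of peaks (5.76 to 6.68) were gene-end peaks, and above it 4.41% (4.03 to 4.81). In list 2 these shares were 5.65% (5.22 to 6.10) and 4.46% (4.08 to 4.87). The intervals below and above the median did not overlap in either list.

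Overlap with the other list followed strength. A peak of the other list was overlapped, by at least 1 bp, by 739 gene-end peaks of list 1 (65.5%, 62.6 to 68.2) and 737 of list 2 (68.8%, 65.9 to 71.5), where the background over all peaks was 70.9% and 71.4%. Below the median −log10 q of list 1, gene-end and other peaks were shared in 47.6% and 49.5% of cases, and above it in 90.6% and 92.5%. For list 2 these were 51.1% and 49.9%, and 91.1% and 92.8%. In 719 of the shared cases the partner was itself a gene-end peak. Gene-end peaks of one list alone numbered 390 in list 1 and 335 in list 2, with median folds of 4.77 and 4.88 and medians of 13 and 14 fragments.

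Of the 12 strongest gene-end peaks of each list, 9 lay at genes that were among the 12 of both. Epdr1, encoding ependymin-related protein 1, ranked highest in each, with 216 and 311 fragments in lists 1 and 2 at a site 449 and 450 bp beyond its 3′ end (chr13:19590726-19591778 in list 1). Its folds were 60.4 (52.7 to 69.0) and 108.9 (97.1 to 121.6). Ppp2r1b, a scaffold subunit of protein phosphatase 2A, had folds of 60.6 and 60.7 at a site 854 and 847 bp beyond its 3′ end. Myl12a, a regulatory light chain of non-muscle myosin, had folds of 48.1 and 59.3 at 43 and 80 bp beyond its 3′ end. The 3 highest by list 2 were therefore sites past a 3′ end. Ect2, a regulator of cell division, had folds of 42.3 and 50.5 some 871 bp before its 5′ end, and Gsap, the gamma-secretase activating protein, 43.7 and 47.5. Pinx1, a telomerase inhibitor, had folds of 35.9 and 51.3. Itprip, which binds the inositol trisphosphate receptor, had folds of 34.2 and 34.9, so that both lists gave nearly the same value. Ercc4, an endonuclease of nucleotide excision repair, had 118 and 178 fragments 57 and 56 bp before its 5′ end and folds of 25.7 and 46.6. Echdc3 (36.7-fold in list 1 and 27.9-fold in list 2) and Gm536 (37.8-fold and 29.7-fold) were among the 12 strongest of list 1. Ppt1, a lysosomal thioesterase whose site also lay near the actin regulator Cap1, was among those of list 2 at 33.5-fold. In list 1 the Ppt1 site was 24.2-fold.

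The rule's threshold of 1000 bp fell among weak and strong peaks. Just inside 1000 bp in list 1 lay Eapp (7.34-fold) and Glt28d2 (6.71-fold), each at 1000 bp, and just outside Fam20c (5.51-fold) and Mettl17 (4.04-fold), each at 1003 bp. In list 2 Ice2 (37.0-fold) and Ppcdc (20.5-fold) lay at 999 bp and Cpne2 (6.74-fold) and Tbc1d2 (5.93-fold) at 1003 bp. The lowest folds were at Pxmp2 (2.59) and Calhm6 (2.72) in list 1 and at E130308A19Rik (2.74) and Paox (2.83) in list 2, on 15, 13, 14 and 11 fragments.

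At the level of genes, 1204 of 21627 protein-coding genes had a gene-end peak in list 1 (5.57%) and 1132 in list 2 (5.23%). Both lists had a gene-end peak at 783 genes (3.62%), which is 65.0% of the genes of list 1 and 69.2% of those of list 2. List 1 alone had a gene-end peak at 421 genes and list 2 alone at 349.

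**Figure D4:**
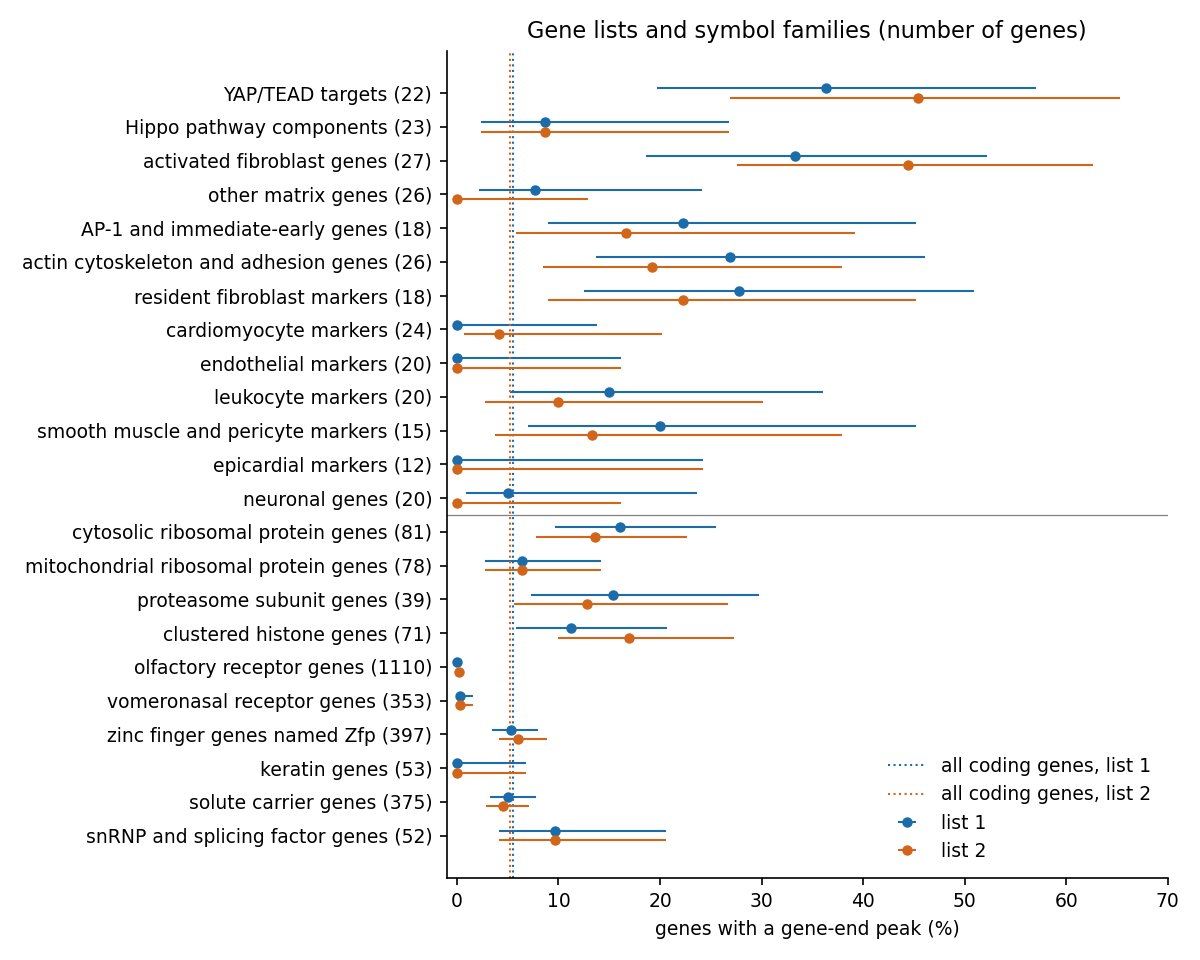
Percentage of genes with a gene-end peak (horizontal axis) for 13 gene lists (above the line) and 10 families defined by gene symbol (below it); points are shares, bars Wilson 95% intervals, blue list 1 and orange list 2, numbers in brackets the genes in each, and dotted lines the shares of all coding genes, 5.57% and 5.23%. YAP/TEAD targets reach 36.4% and 45.5%, and olfactory receptor genes 0% and 0.180%. All lists and families were chosen with earlier results of these data known.

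YAP/TEAD target genes carried gene-end peaks in 8 of 22 cases in list 1 (36.4%, Wilson interval 19.7 to 57.0) and 10 of 22 in list 2 (45.5%, 26.9 to 65.3), beside the 5.57% and 5.23% of all coding genes. This list and those below were chosen with earlier results of these data known, so their shares are descriptions and not tests. The 8 of list 1 were all among the 10 of list 2: Ajuba, Ankrd1, Asap1, Ccn1, Ccn2, Gadd45a, Ptpn14 and Wwc1. Amotl2 and Myof were added in list 2. Ccn2, encoding connective tissue growth factor, had a site 105 and 75 bp outside its gene span with 80 and 144 fragments and folds of 15.7 (12.5 to 19.5) and 42.2 (35.6 to 49.6). Its intervals did not overlap between the lists, and its local background was 4.15 fragments in list 1 and 2.44 in list 2. Wwc1, the Hippo regulator also known as Kibra, had 51 and 79 fragments and folds of 18.4 and 27.9 at 452 and 433 bp beyond its 3′ end. Gadd45a, a growth arrest gene, had folds of 10.2 and 14.3 inside its 3′ end, and Ptpn14, a phosphatase that binds YAP, 6.35 and 7.52 there. The sites counted for this list thus lay at both kinds of gene end. Of the 23 Hippo pathway components 2 had a gene-end peak in each list, Wwc1 in both, Nf2 in list 1 alone (5.51-fold) and Amotl2 in list 2 alone (5.93-fold), and Wwc1 and Amotl2 were also counted as targets.

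Some small genes held several gene-end peaks. Ccn1, which encodes the secreted matricellular factor Cyr61, had 4 in each list along a span of 3015 bp, the highest number of any gene. In list 1 they had folds of 5.15, 6.61, 6.98 and 4.77 in order of position, and in list 2 of 7.31, 5.53, 5.16 and 4.56. They rested on 12 to 36 fragments, where the median over all gene-end peaks was 17 in list 1 and 20 in list 2. Ankrd1 had a site at each end, the weaker one 644 and 642 bp beyond the 3′ end with folds of 9.24 and 8.42. Slc39a13, a zinc transporter gene, had 3 in each list, of which the strongest, inside the 3′ end, was 35.6-fold and 28.02-fold. Egr1, an immediate-early factor, had 3 in list 1, at most 4.85-fold. Several gene-end peaks were found at 50 genes in list 1 and 48 in list 2, and 21 genes had them in both.

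Activated fibroblast genes had gene-end peaks in 9 of 27 cases in list 1 (33.3%, 18.6 to 52.2) and 12 of 27 in list 2 (44.4%, 27.6 to 62.7). The shares of all coding genes were 5.57% and 5.23%. The 9 of list 1 were again all in list 2, and the genes added there included Col3a1 and Thbs1. Lox, which crosslinks collagen, had 36 and 24 fragments and folds of 13.6 (9.63 to 18.7) and 8.72 (5.71 to 12.8) within 60 bp of a gene end. Acta2, the smooth muscle actin of myofibroblasts, had a site 102 and 66 bp from its 5′ end with 15 and 26 fragments and folds of 5.81 and 6.36. Postn, encoding periostin, had 23 and 35 fragments and folds of 7.81 and 9.54, at 578 and 608 bp before its 5′ end. Over the genes with a peak, Ccn2 and Lox included, the median fold was 6.24 in list 1 and 5.98 in list 2. Spp1, encoding osteopontin, had folds of 6.24 and 3.30, and Timp1, a metalloproteinase inhibitor, 6.24 and 4.88. Col5a2, a fibrillar collagen gene, had 2 gene-end sites in both lists. Folds were 5.87 and 7.90 at the site inside its span and 7.19 and 4.73 at the site outside. The stronger of them differed between the lists, while the intervals of each site overlapped. Other matrix genes had 2 of 26 in list 1, Efemp2 (6.61-fold) and Sparc (4.01-fold), and 0 of 26 in list 2 (0 to 12.9%). Genes were divided between these 2 lists with earlier results of these data known, so the contrast between them is not a finding.

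Cytoskeletal and immediate-early genes were counted in the same way, beside the 5.57% and 5.23% of all coding genes. Actin cytoskeleton and adhesion genes had a gene-end peak at 7 of 26 genes in list 1 (26.9%, 13.7 to 46.1) and 5 of 26 in list 2 (19.2%, 8.51 to 37.9). Cald1, Myh9, Ptk2 and Zyx had one in both. Myh9, the heavy chain of non-muscle myosin IIA, had 62 and 60 fragments and folds of 22.3 and 17.6 at 668 and 650 bp before its 5′ end. Zyx, a focal adhesion protein, had folds of 5.14 and 8.37, and Ptk2, the focal adhesion kinase, 7.76 and 7.28. The peaks in list 1 alone, at Actn4, Flna and Tln1, were at most 4.41-fold. Of the AP-1 and immediate-early genes 4 of 18 carried one in list 1 (22.2%, 9 to 45.2) and 3 of 18 in list 2 (16.7%, 5.84 to 39.2), with Klf6 (12.9-fold and 9.58-fold), Ier3 (8.81-fold and 6.08-fold) and Egr1 in both. Among the 7 Fos and Jun genes of this list, 0 had a gene-end peak in either list.

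Resident fibroblast markers had a gene-end peak at 5 of 18 genes in list 1 (27.8%, 12.5 to 50.9) and 4 of 18 in list 2 (22.2%, 9 to 45.2). All coding genes had one in 5.57% and 5.23% of cases. Ddr2, a collagen receptor of cardiac fibroblasts, stood apart among them, with 77 and 83 fragments and folds of 25.4 and 21.9 at 30 and 28 bp inside its 5′ end. Scara5, a ferritin receptor, had folds of 6.41 and 13.2, and Ly6a 2.81 and 5.61, both near gene ends of unknown strand. Mfap5 (5.57-fold) and Vim (4.04-fold) had one in list 1 alone and S100a4 (4.15-fold, near S100a5 too) in list 2 alone.

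Markers of other cell types followed. Endothelial markers had 0 of 20 and epicardial markers 0 of 12 in both lists, with upper Wilson bounds of 16.1% and 24.2%, so that the 5.57% and 5.23% of all coding genes lay within both intervals. Among 24 cardiomyocyte markers none (0) carried one in list 1 and 1 did in list 2, Myl2 at 4.88-fold. Leukocyte markers had 3 and 2 of 20 (15%, 5.24 to 36.0, and 10%, 2.79 to 30.1). Among them were Cx3cr1 (3.34-fold and 3.38-fold) in both lists and Lyz2 (7.98-fold) in list 1. Among 15 markers of smooth muscle and pericytes 3 carried one in list 1 (20%, 7.05 to 45.2) and 2 in list 2 (13.3%, 3.74 to 37.9). The list 1 interval lay above the share of all coding genes, and the list 2 interval included it. In both lists the intervals of leukocyte markers and of smooth muscle and pericyte markers overlapped those of resident fibroblast markers. Rgs5, a regulator of G protein signalling in pericytes, had 94 and 149 fragments and folds of 20.5 (16.6 to 25.1) and 39.05 (33.1 to 45.8) inside its 3′ end, and Lmod1, a leiomodin, 7.71 and 10.8. The neuronal genes had 1 of 20 in list 1, Syn1 (3.58-fold), and 0 of 20 in list 2. A peak list records where DNA was recovered and not which genes are expressed, so these counts do not measure cell types in the culture.

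Some families of housekeeping genes also carried gene-end peaks more often than the 5.57% and 5.23% of all genes. Cytosolic ribosomal protein genes had a gene-end peak at 13 of 81 genes in list 1 (16.05%, 9.63 to 25.5) and 11 of 81 in list 2 (13.6%, 7.76 to 22.7), and 9 had one in both. Rps26 was the strongest of them, with folds of 12.8 and 14.2. Proteasome subunit genes had 6 and 5 of 39 (15.4%, 7.25 to 29.7, and 12.8%, 5.60 to 26.7), led by Psmc5, an ATPase of the proteasome cap whose site also lay near Ftsj3 (16.1-fold and 24.8-fold). Clustered histone genes had 8 and 12 of 71 (11.3%, 5.82 to 20.7, and 16.9%, 9.94 to 27.3), and 6 had one in both. The intervals of the cytosolic ribosomal protein and proteasome families lay above these shares in both lists. Neighbouring histone genes shared peaks, so that the 8 histone genes of list 1 rested on 6 peaks and the 12 of list 2 on 10, and their intervals, which count genes as separate, are too narrow. Intervals of mitochondrial ribosomal protein genes (5 of 78 in each), snRNP and splicing factor genes (5 of 52 in each), Zfp genes (21 and 24 of 397) and solute carrier genes (19 and 17 of 375) included the shares of all genes.

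Families of sensory receptors had almost none. Of 1110 olfactory receptor genes 0 had a gene-end peak in list 1 (0 to 0.345%) and 2 in list 2 (0.180%, 0.0494 to 0.655), Olfr654 and Olfr984. Of 353 vomeronasal receptor genes 1 had a peak in each list, Vmn1r87 in both (8.08-fold and 12.9-fold). The intervals of both families lay below the shares of all genes. Keratin genes had 0 of 53 in both lists, and their interval (0 to 6.76%) included those shares. How expression or the ability to align reads in these repeated families bears on their counts was not tested.

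At sites that were gene-end peaks in both lists the folds were compared pair by pair. Reciprocal best overlap gave 717 pairs of gene-end peaks, with summits a median of 24 bp apart and within 50 bp in 539 of them. Across these sites, which share their libraries and are not replicates, the log2 folds had a Pearson correlation of 0.77. On the log2 scale the fold of list 2 exceeded that of list 1 by a median of 0.10, with an SD of 0.53 between sites, beside a median of 0.15 over 15015 pairs of all peaks. At 25 pairs the fold of list 2 was 2 times that of list 1 or more, and at 14 pairs the reverse held, which is 3.49% and 1.95% of the 717. Over all 15015 pairs these shares were 5.81% and 1.90%. Intervals of the folds did not overlap at 45 of the 717 pairs. This was not counted over all 15015 pairs, so whether 45 is usual for these lists is not known.

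**Figure D5:**
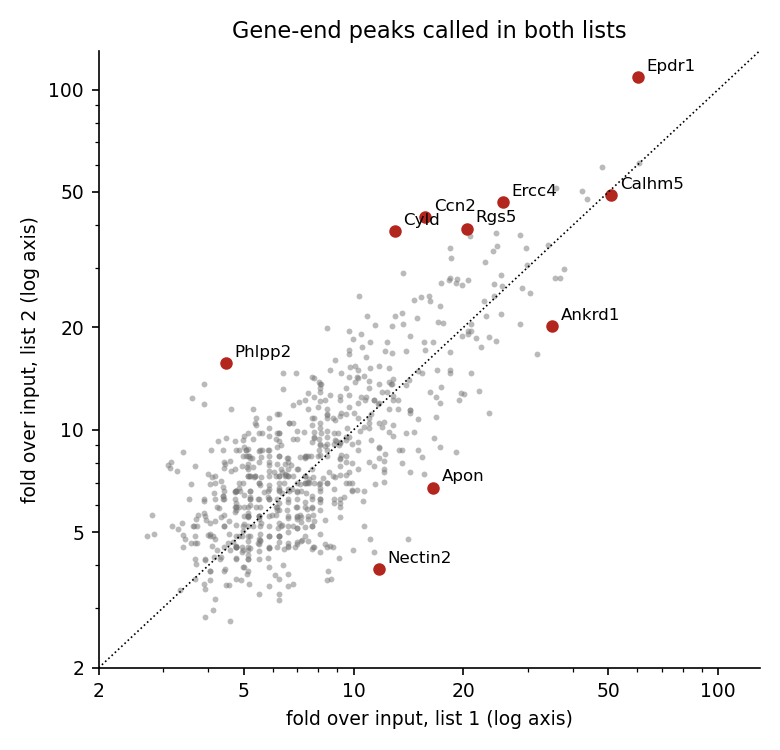
Fold over input of 717 gene-end peaks called in both lists, list 1 on the horizontal and list 2 on the vertical axis (both log axes, dotted line equal folds); each point is a site and red points are named. Most sites lie along the line, with Phlpp2 (4.48 and 15.7) and Cyld (13.0 and 38.4) above it and Nectin2 (11.8 and 3.90) below.

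The widest ratios between the lists often came with unequal local background. Background enters the fold, so choosing pairs by their ratio favours unequal backgrounds. Backgrounds of the other pairs were not compared. Phlpp2, a phosphatase of AKT, had 29 and 44 fragments over backgrounds of 5.70 and 1.87, for folds of 4.48 and 15.7. Cyld, a deubiquitinase, had 86 and 109 fragments over 5.70 and 1.87, for folds of 13.0 and 38.4. Unc45b, a myosin chaperone, had 25 and 38 over 6.22 and 2.13, for 3.60 and 12.4. In each of these the background was higher in list 1, and the fragments differed by less than the folds did. The 1.87 of list 2 at Phlpp2 and Cyld was the low value that many peaks of that list shared. Tubd1, delta tubulin, had folds of 3.89 and 13.6, and Ttc33 of 3.89 and 11.9 on 15 and 40 fragments. In the other direction Nectin2, a cell adhesion protein, had 31 and 14 fragments and folds of 11.8 and 3.90. Cabp2 had 30 and 23 fragments over backgrounds of 1.72 and 4.47, and Apon, whose site is also near the clock gene Timeless, 48 and 36 over 1.96 and 4.47. The 1.72 at Cabp2 was likewise the low value shared by many list 1 peaks. Angptl4 (8.67-fold and 3.65-fold) and Fbxo42 (8.45-fold and 3.63-fold) completed that end. The summits paired at Pi15 lay 1221 bp apart, so its folds of 14.1 and 4.79 belong to different points of 2 overlapping peaks.

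The strongest gene-end peaks of one list alone reached 17.6-fold in list 1 and 13.3-fold in list 2. In list 1 they were Tmem259 (17.6-fold, 13.1 to 23.3), a site beyond the 3′ end of Myl6b near Myl6 (14.7-fold), Ciao2a with Snx1 (13.0-fold), Ubtd2 (12.1-fold) and Prl7d1 (10.3-fold). In list 2 they were Rin1 with Brms1 (13.3-fold, 9.44 to 18.1), Lrrc15 (11.5-fold), Pck1 (11.2-fold), Emp1 (10.6-fold) and Abraxas1 with Gpat3 (10.8-fold). Lrrc15 is known as a marker of activated fibroblasts, and its site, on 32 fragments, lay 926 bp before its 5′ end. Without replicates it is not known whether a site missing from a list was unbound or fell under the threshold.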

How the data were processed

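ChIP and input libraries were made once from control and once from TEAD1-overexpressing cells, 4 libraries in 4 groups. Per the submitters' processing notes, reads were trimmed with Trimmomatic 0.33, mapped by Bowtie 1.1.2 and turned into peaks by MACS2, whose version and settings were not given in the sources used here. Neither deposited list has a header. They give each peak's start, end and summit offset (in bp), a score (the whole part of 10 times −log10 q), the fold (a ratio to local background), −log10 p and −log10 q, all computed by the authors. The notes name build mm39, but 7 and 10 peaks of chromosome 3 in list 1 and list 2, and others on chromosomes 2, 7 and X, run past that build's ends, so coordinates were read as GRCm38, counted from 1.

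Gene spans came from the RefSeq table of GRCm38.p6, without chromosomes Y and MT. Strand came from RefSeq promoter entries, which hold none for chromosome 18. Exons and introns were not analysed here. The fragment number at each summit was solved from the deposited fold and p, assuming a Poisson tail, and was whole within 0.02 for 99.99% of peaks. Total library sizes cannot be read from a peak list. The solver, the gene-end assignment and the motif search were tested on simulated data. Shares have Wilson 95% intervals and folds exact Poisson intervals, which cover counting error only. No test was run, because each list rests on 1 library. Named were the 12 strongest gene-end peaks per list, up to 5 per gene list found in both peak lists, the 5 strongest of one list alone, edge cases and the 6 widest ratios each way; other genes were named after their values were seen. All gene lists, families and members were chosen with earlier results of these data known. Python 3.11.15, pandas 2.3.3, SciPy 1.17.1 and matplotlib 3.10.9 were used. Alternatives are given in the closing section.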

Additional observations from a re-analysis of the deposited data

How the results depend on the processing

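No paired analysis was possible because neither list carries a sample or replicate number and each rests on 1 library. Of 102 values under alternative settings 69 stayed within the counting interval of the value reported, or within 1.5 times for counts, and 33 moved, given here for list 1 and then list 2. With a window of 500 bp there were 571 and 521 gene-end peaks (2.68% and 2.46% of peaks), and with 2000 bp 2091 and 2026 (9.82% and 9.55%). With the 5000 strongest peaks of each list, compared with the whole other list, there were 190 and 187 (3.8% and 3.74%), the median fold was 14.3 and 15.3, and 97.9% and 99.5% were shared; 61.3% of stranded summits in list 1 were nearest a 5′ end. Requiring summits within 200 bp gave 61.6% and 65.0% shared, and reciprocal overlap of 50% gave 58.3% and 61.4%. With any summit of the list in the promoter window 45.3% and 46.1% of windows held CATTCC. Of these the longer letters ACATTCC or GCATTCC were in 36.9% and 38.3%, and windows with a summit within 1000 bp of the start held CATTCC in 21.1% and 19.3%. Among gene lists, 500 bp moved other matrix genes (0%), actin genes (11.5%) and neuronal genes (0%) in list 1 and YAP/TEAD targets (22.7%), activated fibroblast genes (25.9%) and cardiomyocyte markers (0%) in list 2. With 2000 bp actin genes had 46.2% in both. Wider windows hold more sequence and stronger peaks are fewer by construction; the cause of other changes was not tested. The restriction to gene-end summits in promoter windows was added after seeing the data.

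The gene-end rule mixes 5′ and 3′ ends, and 21.6% and 20.8% of its peaks lay nearest a gene without a strand. A median peak rested on 17 and 20 fragments, so single weak sites have wide intervals.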
